A study of Mus musculus with 8 samples.

Results

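The normal-diet liver methylome described here comes from 4 of the 8 whole-genome bisulfite libraries of a mouse study of nonalcoholic steatohepatitis. The 4 were chosen by their titles, which name wild-type liver, and by the table's columns headed ND, for normal diet, which are numbered 1 to 4 as the titles are. They were made from flash-frozen liver of male wild-type C57BL/6J mice, a common inbred strain, bought at 8 weeks of age and kept on a normal diet for 28 weeks. The other 4 libraries, titled NASH, came from the same strain on a diet rich in fat, cholesterol and fructose and are not compared here. One label goes against this: samples titled wild type are given NASH as their treatment. The grouping follows the titles, which the columns also follow. Nothing states whether each library is a different mouse, so an SD below may hold technical spread only.

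In mammals, DNA methylation sits mostly on the cytosine of CpG dinucleotides and is copied when cells divide. Most CpGs of an adult tissue are methylated, while CpG islands, the CpG-dense stretches at many gene starts, are usually free of it whether or not the gene is active. Starts with few CpGs are often unmethylated only in tissues that use the gene, and germline and imprinted genes are known for CpG-dense starts that are methylated in the body. Whole liver is mostly hepatocytes by mass but also holds endothelial cells, Kupffer cells, stellate cells, bile duct cells and leukocytes, so a level is an average over cells.

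The table lists 30729668 cytosines for every library, on 15 chromosomes (1 to 4, 5 up to 117.1 Mb, and 10 to 19), each strand of a CpG counted as its own position. The table gives a percentage and no read count, so the depth behind a level is unknown and no counting interval can be given. An exact 0 can stand for a position without reads as well as for an unmethylated one. Runs of at least 10 positions over at least 2000 bases that were exactly 0 in all 4 libraries, called blank stretches below and defined after the data were seen, made up 2252 stretches with 15.6 Mb and 0.885% of positions, the longest 145 kb. Zeros surrounded by methylated positions of the same library (their 10 nearest had a median of at least 50%) made up 2.08% to 2.39% of positions. Regions with 10% or more of their positions in blank stretches were left out of the lists and of the named genes, and the main counts are given with them and without.

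The range of levels at gene starts is best seen in the sequences themselves, of which 6 starts were chosen after their values were seen. The 250 bases upstream of each annotated start are printed 5′ to 3′ on the gene's strand, from RefSeq (GRCm38.p6, the assembly behind mm10), with every CpG in capitals. The first is the start of Ppara, the fatty acid-sensing nuclear receptor of liver (chr15:85735526-85735775, plus strand), with 27 CpGs in the printed bases and levels of 0%, 0.926%, 0% and 0% in ND replicates 1 to 4.
Ppara: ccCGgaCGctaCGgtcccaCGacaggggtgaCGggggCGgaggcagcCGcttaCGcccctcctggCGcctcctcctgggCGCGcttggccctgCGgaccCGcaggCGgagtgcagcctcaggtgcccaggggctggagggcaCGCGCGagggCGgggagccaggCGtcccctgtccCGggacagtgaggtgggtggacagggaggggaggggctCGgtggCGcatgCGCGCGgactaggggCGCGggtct
The start of Alb, the albumin gene (chr5:90460620-90460869, plus strand), has 2 CpGs there, at 25.9%, 18.8%, 17.6% and 31.2%.
Alb: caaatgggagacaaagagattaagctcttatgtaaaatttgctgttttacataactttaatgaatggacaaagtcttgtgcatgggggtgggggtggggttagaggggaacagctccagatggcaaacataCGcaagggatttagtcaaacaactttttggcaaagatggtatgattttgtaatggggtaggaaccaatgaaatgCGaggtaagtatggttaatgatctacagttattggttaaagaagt
The start of Myl1, a myosin light chain gene of skeletal muscle (chr1:66945057-66945306, minus strand), has 6 CpGs, at 89.1%, 89.1%, 91.2% and 84.1%.
Myl1: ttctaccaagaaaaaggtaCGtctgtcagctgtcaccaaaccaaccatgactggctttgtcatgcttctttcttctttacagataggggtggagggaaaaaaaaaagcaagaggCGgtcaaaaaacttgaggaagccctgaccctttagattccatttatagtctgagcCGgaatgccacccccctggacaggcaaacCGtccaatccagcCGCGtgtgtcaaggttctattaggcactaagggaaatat
Creb3l3, a liver and gut transcription factor gene, has a pair of annotated starts on the minus strand of chromosome 10. The downstream start (chr10:81092592-81092841) has 8 CpGs at 5.0%, 20.2%, 1.25% and 6.25%, and the upstream start (chr10:81098873-81099122) has 4 CpGs at 92.9%, 91.1%, 94.6% and 84.4%.
Creb3l3 downstream start: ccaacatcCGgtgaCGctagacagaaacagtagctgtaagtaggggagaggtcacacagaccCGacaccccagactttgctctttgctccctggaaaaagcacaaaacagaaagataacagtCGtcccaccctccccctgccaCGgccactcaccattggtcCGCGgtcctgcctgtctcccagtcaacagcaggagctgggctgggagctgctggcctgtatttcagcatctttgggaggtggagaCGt
Creb3l3 upstream start: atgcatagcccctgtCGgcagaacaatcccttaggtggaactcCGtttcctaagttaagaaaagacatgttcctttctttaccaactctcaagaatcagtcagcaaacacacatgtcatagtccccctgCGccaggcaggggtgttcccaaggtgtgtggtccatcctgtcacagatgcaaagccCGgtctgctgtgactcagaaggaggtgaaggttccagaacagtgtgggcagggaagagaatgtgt
Sycp1, a gene of the meiotic synaptonemal complex (chr3:102936101-102936350, minus strand), has 17 CpGs at 91.6%, 96.8%, 93.5% and 94.1%.
Sycp1: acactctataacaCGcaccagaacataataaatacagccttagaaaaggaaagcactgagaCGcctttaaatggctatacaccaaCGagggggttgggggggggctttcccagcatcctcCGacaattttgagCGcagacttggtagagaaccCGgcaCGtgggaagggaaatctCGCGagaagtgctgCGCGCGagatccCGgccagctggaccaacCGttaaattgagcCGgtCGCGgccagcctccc
Thus the CpG-dense start of Ppara lay near 0 in all 4 libraries while the CpG-dense start of Sycp1 was at 91.6% or more, and the starts of Alb and Myl1, with 3 and 7 CpGs in the 300 bases used below, did not overlap in any library. The lowest and highest single CpGs were at 0% and 6.25% upstream of Ppara, at 20.8% and 25.9% upstream of Alb, at 72.5% and 97.6% upstream of Myl1 and at 62.5% and 100% upstream of Sycp1, as means over the libraries.

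Averaged over all positions, methylation was 72.0% in ND replicate 1, 71.1% in replicate 2, 72.3% in replicate 3 and 72.1% in replicate 4, or 71.9% ± 0.515 (SD, n = 4). Replicate 2 was the lowest, and the other 3 lay closer to each other than to it. Of the positions, 59.5% ± 0.951 were at 80% or more, 26.0% ± 0.851 between 20% and 80%, and 14.5% ± 0.136 under 20%, and 13.01% ± 0.174 were exactly 0 and 37.7% ± 0.734 exactly 100. A level of exactly 0 in all 4 libraries was found at 8.21% of positions. Chromosomes differed little, from 69.5% on chromosome 11 to 74.0% on chromosome 18.

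**Figure D1:**
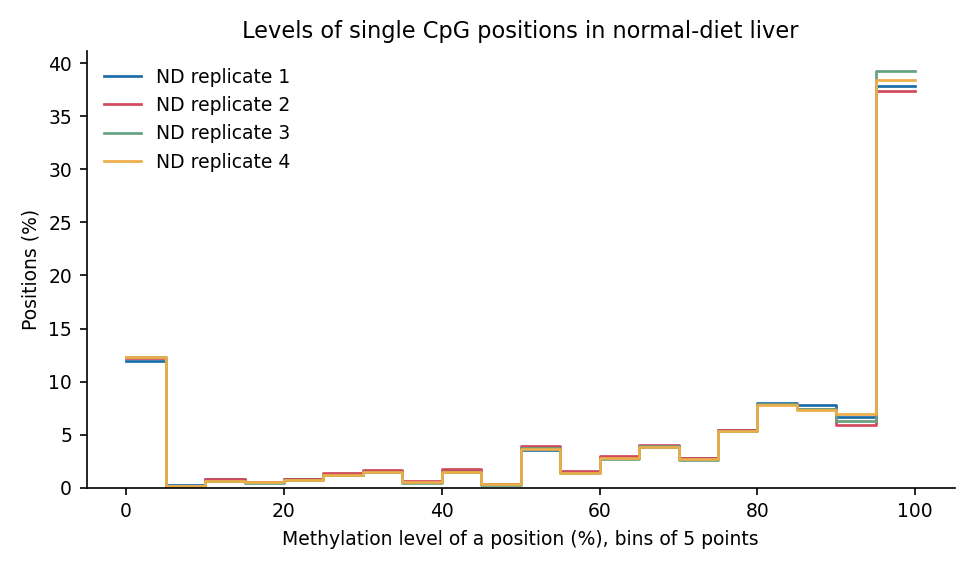
Share of positions (y axis, %) by methylation level (x axis, bins of 5 points) in each of the 4 normal-diet libraries, blank stretches left out. The 4 lines nearly coincide, with 11.98% to 12.37% of positions in the lowest bin and 37.4% to 39.2% in the highest.

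Local CpG density went with the level. Positions with at most 4 listed positions within 100 bases on either side were at 77.3% ± 0.796, those with 5 to 9 at 78.1% ± 0.489, those with 10 to 19 at 74.6% ± 0.290, those with 20 to 29 at 50.5% ± 0.238 and those with 30 or more at 9.45% ± 0.367 (SD, n = 4, blank stretches left out). Inside protein-coding genes the mean was 70.9% and between genes 72.8%. The difference was -1.99, -1.39, -2.17 and -1.92 points in replicates 1 to 4, a mean of -1.87 ± 0.335 (exact two-sided sign-flip permutation test over 4 libraries, p = 0.13, also after Benjamini-Hochberg adjustment over the comparisons of this kind). That p is the smallest that 4 libraries allow, so no comparison within them can pass 0.05. The direction was the same in 4 of 4 libraries but turned to 1.99 points when every zero was left out, and the cause of that change was not tested.

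Of 14810 protein-coding genes on the covered chromosomes, 14020 had at least 20 listed positions in their span, from the first to the last annotated base. Their median level was 69.4%, and 1408 spans were under 30%, 5791 from 30% to 70%, 6675 from 70% to 90% and 146 at 90% or more. In 99 spans every position was exactly 0 in all 4 libraries. Of the 1408 low spans, 257 had 10% or more of their positions in blank stretches. Without the 290 spans of that kind, 13730 remained, with a median of 69.9% and quartiles at 55.5% and 77.9%. Of these, 1151 (8.38%) were under 30% and 146 (1.06%) at 90% or more, which are the backgrounds for the gene groups below. All 4 libraries fell in the same class for 1042 of the low and 90 of the high spans.

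Span level went with gene length and CpG density, except that the shortest genes were not the lowest. Median levels were 70.1% for genes under 2 kb, 46.0% for genes of 2 to 5 kb, 62.7% for 5 to 20 kb, 70.6% for 20 to 50 kb, 74.9% for 50 to 200 kb and 77.5% for longer genes, and those under 2 kb spread widest, with quartiles at 12.4% and 85.2%. Across the 13730 spans the level correlated with log length at r = 0.43 (rho = 0.36) and with positions per kb at r = -0.62 (rho = -0.50). These are across genes of the same libraries, and genes are not independent replicates. With the first and last 2000 bases of each gene left out, which drops the shortest genes, the median was 80.8% and 444 spans were under 30%.

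The least methylated spans with at least 100 positions were short and CpG-dense. The lowest were H2ac19, a core histone H2A gene (chr3:96239779-96240374), with 0.505%, 0%, 0% and 0% in replicates 1 to 4, and its neighbour H2ac18, with 0.826%, 0%, 0% and 0%. H3c7, a histone H3 gene of the chromosome 13 cluster, was at 0.342% ± 0.374 (SD, n = 4). Also among the 12 lowest, which reached 0.764%, were Fahd1, a mitochondrial oxaloacetate decarboxylase gene, Znhit2, Ppdpf, Nrp and 5 predicted or uncharacterised genes. No library was above 1.45% in any of the 12.

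The most methylated spans of the same size were led by Ldhal6b, a lactate dehydrogenase-like gene of testis (chr17:5417323-5418767), with 98.4%, 98.2%, 98.2% and 96.7%, and by Tssk2, a testis-specific serine kinase gene (chr16:17898637-17900024), with 96.5%, 95.6%, 98.5% and 95.1%. Mzb1, a gene of marginal zone B cells and plasma cells, was at 94.8% ± 0.408, Pabpc2, a poly(A)-binding protein gene, at 94.8% ± 0.414, and Csl, a citrate synthase-like gene, at 94.0% ± 1.34. Bglap3, related to the bone protein osteocalcin, was at 93.7% ± 0.527 and Col10a1, the type X collagen gene of growth plate cartilage, at 92.9% ± 0.367. Bex6, Ccdc78, 1700109H08Rik, Serpina3b and Prr22 completed the 12, between 93.1% and 93.5%.

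Among 3561 genes of at least 50 kb the order was different. The second lowest was Rxra, the retinoid X receptor alpha gene, whose product pairs with most nuclear receptors of liver metabolism (chr2:27676445-27763319), with 32.1%, 32.4%, 33.9% and 32.6%. Tsc22d2 was at 37.8% ± 0.751, Bdnf, a neurotrophin gene, at 38.5% ± 0.309 and Gata4, a zinc finger transcription factor gene, at 38.7% ± 1.52. The lowest was Rex2, at 26.1% ± 1.56. The rest of the 12 were Pramel35, Pramel38 and 5 predicted genes (Gm10476, Gm40862, Gm10410, Gm3629 and Gm21103), up to 38.8%. Exact zeros, which may be positions without reads, weigh on several of these. In Rex2, 17 kb (chr4:146998001-147015000) had 92.8% zeros and 96.3% at the remaining positions. Long stretches that overlap Gm10476, Gm40862 and Gm3629 had 61.5%, 61.4% and 51.5% zeros. Their remaining positions averaged 82.6%, 83.2% and 84.6%. The highest long genes were Cep57l1 with 91.0%, 91.0%, 90.3% and 91.4%, Prim2, the large subunit gene of DNA primase, with 90.5% ± 0.313, Drosha, the nuclease of microRNA processing, with 90.1% ± 0.226, and Neb, the nebulin gene of muscle, with 90.1% ± 0.252. Pcnt, Scfd1, Ly75, Tasp1, Ift80, Nbas, Mbd5 and Xrcc5 followed, between 88.5% and 89.3%.

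A gene end was taken as 1000 bases of flank plus the first or last 500 bases of the gene, with the start told from the other end by the strand of the RefSeq promoter table, which had 11637 of the 14810 genes. Start ends had a median of 13.1% over 11570 genes and other ends 83.1% over 11443 genes. Without ends in blank stretches, 4918 of 11385 start ends (43.2%) were under 10% and 1617 (14.2%) at 80% or more, against 274 and 6732 of 11273 other ends. In the 11387 genes with both ends measured, the start end averaged 31.3% and the other end 75.5%. The difference was -44.4, -44.1, -44.3 and -44.1 points in replicates 1 to 4, a mean of -44.2 ± 0.128 (exact two-sided sign-flip permutation test, p = 0.13, the smallest possible, 4 of 4 libraries in the same direction). Without blank stretches it was -45.0 ± 0.134 points over 11180 genes, of which 8656 had the start lower in all 4 libraries and 1238 had it higher.

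The largest gaps between the ends of a gene nearly spanned the whole scale. Mastl, a mitotic kinase gene, went from 1.0%, 0.242%, 0.581% and 0.723% at its start to 97.8%, 99.02%, 100% and 98.0% at its other end. Tle1, a transcriptional corepressor gene, went from 0.451% ± 0.316 to 98.2% ± 0.774, and Hivep1, a zinc finger transcription factor gene, from 0.379% ± 0.375 to 97.5% ± 1.19. Alg12, an N-glycan mannosyltransferase gene, Brpf3, Tm9sf3, Kif20b and 4930579G24Rik followed, with differences from -97.1 to -96.7 points. In the opposite direction, 75 genes had the start 50 or more points higher in all 4 libraries. The largest was Ppp1r27, with 93.7% ± 1.80 at the start and 1.496% ± 0.130 at the other end, then Mafg, a small Maf transcription factor gene, with 91.7% ± 3.50 and 0.893% ± 0.520. Mip, the lens aquaporin gene, had 87.4% ± 3.92 and 1.63% ± 0.460, and Pdpk1, a kinase gene of insulin signalling, 87.8% ± 3.50 and 3.78% ± 0.597. A start end lies at the outermost annotated base, so any annotated start further inside a gene is not covered by it. The whole spans averaged 71.1% in Ppp1r27, 15.4% in Mafg, 79.0% in Mip and 65.0% in Pdpk1. In each of the 8 largest cases the window at the low other end overlapped another protein-coding gene. It was Mcrip1 for Ppp1r27, Sirt7 for Mafg, Timeless for Mip and Kctd5 for Pdpk1. How often other ends overlap another gene in general was not counted, so this has no background.

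For finer resolution, with the starts named here chosen after their values were seen, the 300 bases from 250 upstream to 50 downstream of each annotated start were used, with at least 2 CpGs. Of 14312 starts, 12717 from 10334 genes could be measured. The median level was 69.6% for starts with 2 to 4 CpGs, 56.1% for 5 or 6, 19.08% for 7 to 9, 2.42% for 10 to 14, 1.24% for 15 to 19, 0.971% for 20 to 29 and 0.858% for 30 or more. The median thus dropped most between 5 and 10 CpGs, and 98.0% of starts with 20 or more CpGs were under 10%. Around starts with 15 or more CpGs the low region reached further downstream than upstream, with 4.30% ± 0.390 at 500 bases downstream and 9.60% ± 0.320 at 500 bases upstream. Around CpG-poor starts (2 to 6 CpGs) the lowest mean, 45.3% ± 0.337, lay 500 bases downstream of the start.

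**Figure D2:**
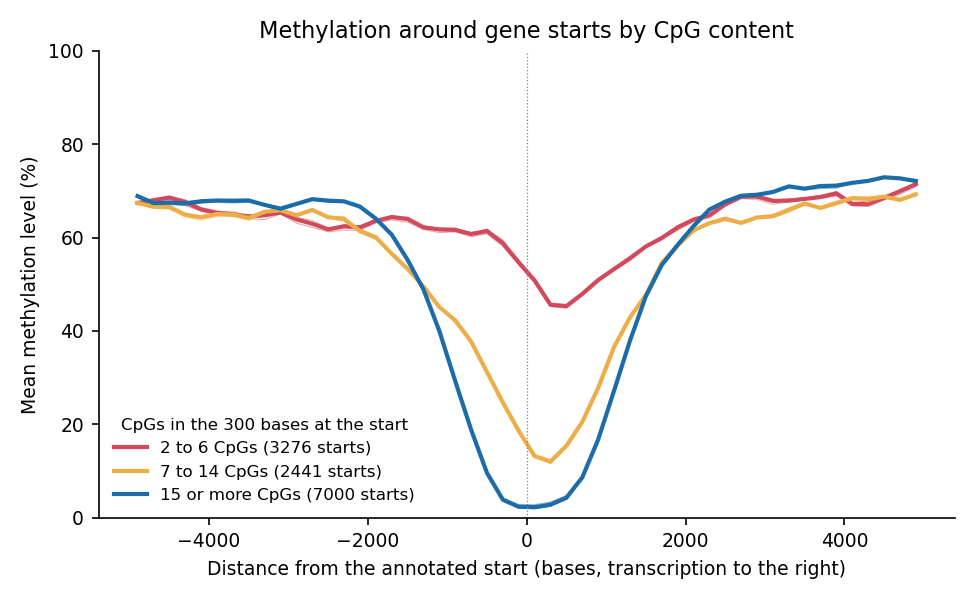
Mean methylation level (y axis, %) by distance from the annotated start (x axis, bases, bins of 200, transcription to the right) for starts with 2 to 6, 7 to 14 and 15 or more CpGs in their 300 bases. Thick lines are means over the 4 libraries and thin lines the libraries, which lie almost on top of each other. The CpG-dense class falls to 2.28%, the middle class to 12.01% and the CpG-poor class to 45.3%.

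Only 36 of 5457 starts with 20 or more CpGs (0.660%) were at 50% or more, from 33 genes. The highest was Fam178b, with 97.1% ± 1.302 at the higher of 2 overlapping starts. Many of the others are genes of meiosis and germ cells. Sycp1 was at 90.9%, 94.3%, 92.02% and 93.7%, and Dazl, an RNA-binding protein gene of germ cells, at 96.0%, 97.3%, 97.4% and 73.8%. Mov10l1, a piRNA pathway helicase gene, was at 91.2% ± 4.34, Hormad1, a meiotic chromosome axis gene, at 89.4% ± 3.74, Brdt, the testis bromodomain gene, at 88.4% ± 2.75, and Mael, a piRNA pathway gene, at 74.6% ± 7.88. Of the 15 CpG-dense starts of the germline gene list, 9 from 8 genes were at 50% or more, with a list median of 74.6% against 0.922% for all CpG-dense starts. The members were chosen as genes known to be silenced in the body, and no test was made. Ddx4, the germ cell helicase gene, spread widely, with 79.1%, 65.2%, 63.8% and 34.2%.

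Imprinted genes, which are methylated on the copy from only one parent at their control regions, gave 4 of the 36 starts from 3 genes, out of 15 CpG-dense starts from 9 imprinted genes with a median of 3.41%. Mcts2 was at 51.0%, 56.2%, 58.5% and 70.5%, the more methylated of 2 overlapping Gnas starts at 63.1% ± 13.6 and Plagl1 at 47.4%, 80.6%, 32.1% and 41.0%. The Plagl1 start had an SD of 21.2 points, with replicate 2 far above the others. Outside both lists was Abcg8, which encodes a subunit of the hepatobiliary sterol transporter, at 67.8%, 55.1%, 67.2% and 81.2%. In each other list with CpG-dense starts, from plasma proteins to developmental transcription factors, none was at 50% or more.

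CpG-poor starts were mostly methylated, with a median of 66.7% over 3276 starts, of which 811 (24.8%) were under 30%. Most hepatocyte genes with such starts were in that minority. Of CpG-poor starts, 33 of 37 for plasma proteins, 20 of 21 for liver metabolic enzymes and 7 of 7 for liver transcription factors were under 30%, with medians of 23.3%, 17.8% and 17.4%. These are counts of starts and not of genes, and overlapping starts, such as those within Cyp4f14, Agxt2 and Cp, were counted separately. Of the starts of the other lists, 3 of 187 for olfactory receptors, 3 of 54 for keratins, 2 of 11 for striated muscle genes, 0 of 10 for lymphocyte genes, 1 of 8 for macrophage genes, 2 of 9 for neutrophil genes, 1 of 9 for endothelial genes, 3 of 9 for stellate cell genes and 1 of 6 for cholangiocyte genes were under 30%. Low starts were not particular to hepatocyte genes. Also under 30% were 7 of 7 for developmental transcription factors, 5 of 5 for histones and 5 of 7 for imprinted genes. So were 21 of 43 for Zfp genes, 5 of 11 for neuronal genes and 6 of 13 for major urinary proteins. Several of the low Zfp starts, such as Zfp931 and Zfp971, were exactly 0 in all 4 libraries, which may mean no reads. The markers of the labelled tissue were low at CpG-poor starts, but so were developmental transcription factors (median 7.28%), histones (2.93%) and imprinted genes (25.5%). For other cell types the medians were 78.3% for lymphocyte, 66.1% for macrophage, 63.7% for endothelial and 57.3% for cholangiocyte genes. They were 47.1% for neutrophil and 46.4% for stellate cell genes. Each of these other cell types had only 6 to 10 such starts. A low mean in whole liver cannot be split between cell types here.

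Among the plasma protein genes, Itih3, an inter-alpha-trypsin inhibitor heavy chain gene, was at 8.89%, 4.17%, 0% and 13.9%, C3, the central complement gene, at 7.62% ± 3.01 and Fgg, the fibrinogen gamma gene, at 7.5%, 22.0%, 3.33% and 0%. Alb was at 24.2%, 17.9%, 27.2% and 33.2%. Its neighbour Afp, the fetal counterpart of albumin, was at 68.9%, 52.3%, 53.9% and 70%, so that no library of Afp overlapped any of Alb. Each of these windows has 3 CpGs, and the SDs were 6.34 and 9.48 points. At Ambp the values were 4.44%, 3.57%, 57.4% and 16.9%, and at Orm2 51.2%, 11.4%, 13.5% and 5.0%, where 1 library stood far above the others.

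Among the enzymes, Sardh, of choline breakdown, was at 0.759% ± 0.903, Adh1, the class I alcohol dehydrogenase gene, at 2.89%, 3.2%, 9.35% and 3.31%, and Fbp1, of gluconeogenesis, at 7.32% ± 2.52. Pck1 was at 21.5% ± 5.55, G6pc at 19.7% ± 3.63 and Tdo2, the first enzyme of tryptophan breakdown, at 23.6% ± 10.96. Pklr, the pyruvate kinase gene of liver and red cells, had one start at 13.02% ± 2.47 and another further upstream at 56.9% ± 4.95, with no overlap between the libraries. Of the regulators, Nr1i2, the xenobiotic receptor gene PXR, was at 7.35% ± 2.58, Nr1i3, the related receptor gene CAR, at 17.4% ± 7.13 and Nr0b2, the bile acid-induced repressor gene SHP, at 5.09% ± 4.44. Both measured starts of Hnf4a, a central hepatocyte transcription factor gene, were partly methylated, at 22.2% ± 10.9 and 20.1% ± 5.60.

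Genes with annotated starts at least 1000 bases apart allow a comparison within a gene. Of 854 such genes, 359 (42.0%) had starts that differed by 50 or more points in all 4 libraries. The lower start lay upstream in 260 and downstream in 99. It had more CpGs in 338 and fewer in 15, with medians of 23 CpGs at the lower start and 4 at the higher. Pou2f1, the gene of the ubiquitous factor OCT1, had the largest gap, from 1.27% ± 2.29 to 99.7% ± 0.694. Of 10 such genes, from the liver lists with the receptor genes Prlr, Esr1 and Ghr added, 3 (Creb3l3, Fetub and Prlr) had such a gap, and in the other 7 the starts differed by 1.42 to 12.02 points. The lower start was upstream in 7 of the 10, where the background is 563 of the 854 genes. It was downstream in Creb3l3, with 6.53% ± 6.62 against 81.2% ± 13.7 in the 300 bases, and in Fetub, the fetuin B gene, with 7.0% ± 1.93 against 80.3% ± 7.02. Pemt, the gene of the liver enzyme that makes phosphatidylcholine from phosphatidylethanolamine, had starts at 18.8% ± 13.7 and 94.0% ± 7.53. Thpo, the thrombopoietin gene, had them at 14.6% ± 5.44 and 78.1% ± 6.25, and in both genes the lower one had fewer CpGs. Prlr, the prolactin receptor gene, had 28.9% ± 6.13 at a start with 2 CpGs and 93.8% ± 1.71 at a start with 4.

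In the search for sequence motifs, 3 were looked for on both strands of the 300 bases, as exact letters. GTTAAT, the core of sites for HNF1 factors, was in 5.32% of all starts. It was in 14.1% of CpG-poor starts under 30%, 8.95% of those from 30% to 80% and 7.47% of those at 80% or more. CAAAGTCCA, a form of the HNF4 site, was in 0.456% of all starts, and in 1.85%, 0.949% and 0.101% of the same classes, the last being 1 start of 990. The letters TATAAA, which place the start of transcription in many regulated genes, were in 9.98% of all starts and in 16.3%, 21.3% and 23.5% of those classes. A match of letters is a description and shows no binding.

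Gene groups fell far apart in their span levels, with a median of 69.9% over all 13730 spans. Core histone genes were lowest, with a median of 2.46% and 50 of 53 under 30%. An exception was H2ac1, a testis-expressed histone H2A gene, at 93.6%, 90.2%, 90.05% and 94.9%. Homeobox and other developmental transcription factors followed with a median of 8.25% and 101 of 113 under 30%, from Olig1 at 1.94% ± 1.07 to Pax5 at 64.6% ± 0.592. Ribosomal protein genes, which are short and used in every cell, had a median of 18.8% and 37 of 46 under 30%, where the highest was Rpl22 at 53.5% ± 0.329.

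Hepatocyte groups had span medians of 54.3% for liver transcription factors, 57.5% for metabolic enzymes and 57.7% for plasma proteins, with 6 of 25, 1 of 55 and 9 of 54 under 30% where the background is 8.38%. Cebpb, a transcription factor gene of the acute phase response, had the lowest span of these, at 0.272%, 0.730%, 4.75% and 0.506%, and Apoa2, an apolipoprotein gene of high density lipoprotein, was at 8.44%, 5.30%, 8.96% and 11.6%. Gnmt, the glycine methyltransferase gene, was at 16.6% ± 2.36. At the upper end were F13b, the coagulation factor XIII B chain gene, at 82.6% ± 1.26, and Cyp4a14, a fatty acid hydroxylase gene, at 84.2% ± 1.59. Near the group medians were Plg, the plasminogen gene, at 57.9% ± 0.807 and Hnf4a at 51.1% ± 0.785. Housekeeping genes were at a like median of 54.0%, and 20 of their 21 start ends were under 10%, where the background is 43.2%.

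Gene groups of other tissues, and of liver cell types other than hepatocytes, mostly had medians above that of all spans. Cholangiocyte genes, given below, did not. Beta-defensins were at 81.9%, striated muscle genes at 81.7%, olfactory receptors at 79.7%, germline genes at 79.2%, lymphocyte genes at 79.0%, keratins at 77.1%, neutrophil genes at 76.6%, macrophage and stellate cell genes at 76.3%, endothelial genes at 73.3%, neuronal genes at 72.9% and vomeronasal receptors at 71.5%. Spans at 90% or more, a class of 1.06% in the background, held 14 of 239 olfactory receptors, 4 of 76 keratins, 3 of 31 germline genes and 1 each of 22 striated muscle genes (Neb) and 15 neutrophil genes (Cebpe, at 92.1% ± 1.84). Exceptions were short CpG-dense genes such as Cd14, the endotoxin co-receptor gene, at 6.37% ± 0.519, Sox18, an endothelial transcription factor gene, at 6.71% ± 0.199 and Slc32a1, the vesicular GABA transporter gene, at 6.61% ± 0.889. At start ends, medians were 10.1% for liver transcription factors, 11.1% for neuronal genes, 25.6% for liver enzymes and 29.7% for plasma proteins. Other liver cell types were not all far above these. Their medians were 29.1% for stellate cell, 34.5% for cholangiocyte, 49.0% for endothelial and 69.0% for macrophage genes. Neutrophil genes were at 72.6%, lymphocyte genes at 74.8% and striated muscle genes at 79.95%. Of start ends, 10 of 20 for muscle and 184 of 563 for olfactory receptors were at 80% or more, against a background of 14.2%.

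Clustered protocadherins, cell adhesion genes with alternative first exons on chromosome 18, lay in a narrow middle range, with 56 of 57 between 30% and 70% and a median of 54.9%, though their spans overlap and share positions. Cholangiocyte genes had a median of 56.4%, imprinted genes 69.5% and zinc finger Zfp genes 70.4%. Major urinary protein genes, a cluster of near-identical copies on chromosome 4 with high male liver output, had a median of 56.5%, from Mup9 at 4.64% ± 2.66 to Mup4 at 89.5% ± 2.66. Reads of such copies may have been shared between them, so their values are uncertain.

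**Figure D3:**
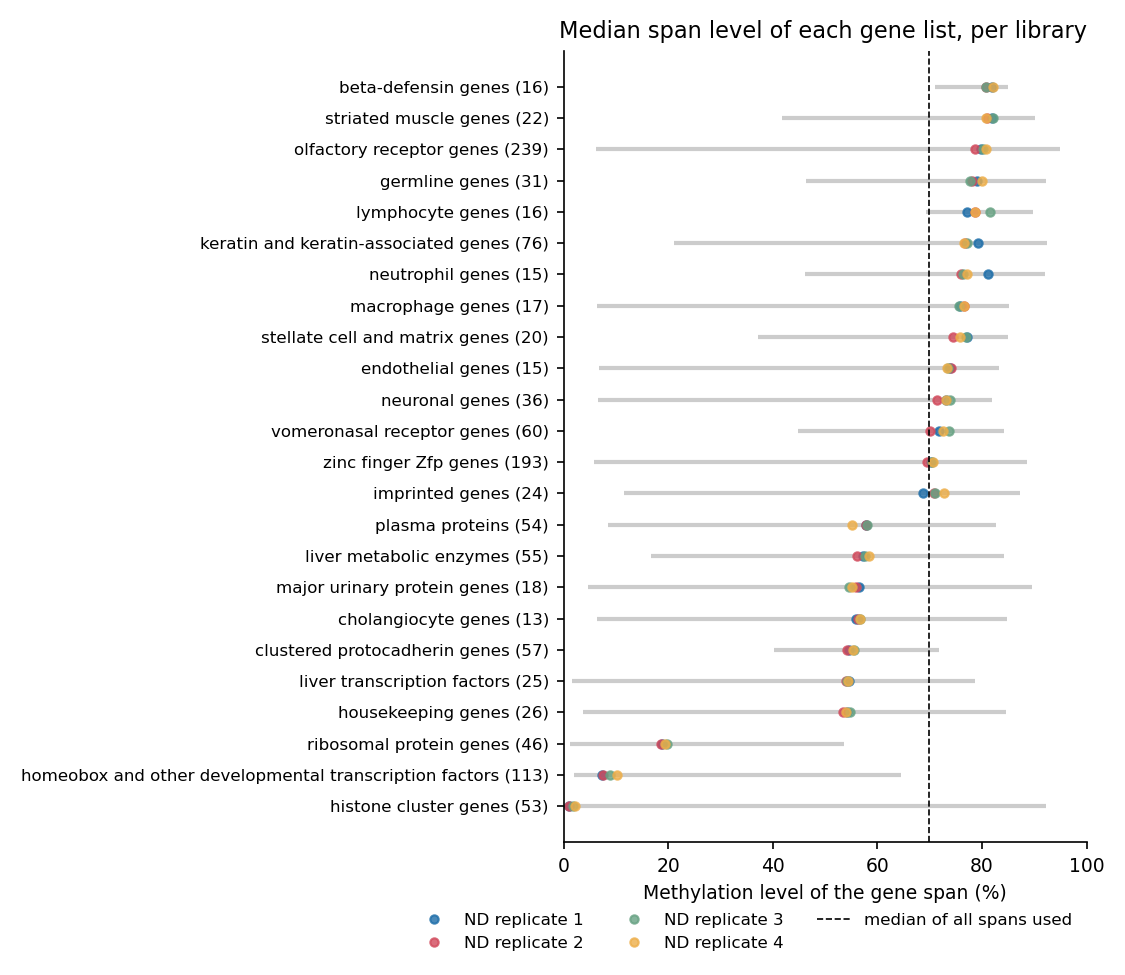
Median methylation level of the gene spans (x axis, %) of each gene list (y axis, number of spans in brackets) in the 4 libraries (points), with the range of single genes as grey bars and the median of all spans used as a dashed line. Medians of the gene means run from 2.46% for core histones to 81.9% for beta-defensins, and replicate 1 stands apart for neutrophil genes, at 81.1%.

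Long stretches were searched in windows of 10 kb with at least 20 positions, of which there were 182717 with a median of 78.8%. Under 60% were 11.3% of windows and at 90% or more 6.53%. Runs of 5 or more adjacent windows under 60% gave 236 low stretches, or 162 (12.7 Mb) without those with 10% or more of their positions in blank stretches. Each library alone gave 152 to 171 of the latter. They were CpG-dense, with a median of 27.2 positions per kb against 14.6 for all windows. The longest, of 310 kb over Gm6460 on chromosome 5, was at 34.7%, 33.5%, 36.3% and 35.0%, but 57.7% of its positions were zeros and the remaining positions averaged 82.4%. The next 6, all in families of predicted genes on chromosomes 12 and 14, were alike, with 43.6% to 61.5% zeros and 79.8% to 85.3% at the remaining positions.

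Of the 162 low stretches, 33 stayed under 60% when every zero was left out, and among these were 3 homeobox clusters. Hoxc (chr15:102900001-103070000, 170 kb) was at 11.99%, 11.87%, 12.01% and 12.85%, Hoxd with Evx2 (chr2:74640001-74770000, 130 kb) at 11.8% ± 0.353 and Hoxb (chr11:96250001-96380000, 130 kb) at 14.7% ± 0.532. Also among the 33 were stretches at the transcription factor genes Tfap2b, Nr2f1, Lhx2, En1 and Ptf1a, with means of 22.6% or less. Several others, chosen here after their values were seen, lay in genes with a known role in liver, all at higher means than these. Egfr, the epidermal growth factor receptor gene, held a low stretch of 100 kb (chr11:16750001-16850000) at 45.4%, 43.6%, 46.5% and 40.3%, Rxra one of 100 kb at 33.7% ± 0.647 and Cps1, whose enzyme starts the urea cycle, one of 90 kb (chr1:67110001-67200000) at 49.7%, 51.1%, 51.8% and 50.6%. The stretch in Cps1 had only 5.90% zeros and averaged 54.0% without them. Rbm47, an RNA-binding protein gene, was at 44.3% ± 0.773 over 80 kb and Adk, the adenosine kinase gene, at 40.5% ± 0.612 over 60 kb. The fibrinogen genes Fgg, Fga and Fgb were at 34.5% ± 1.21 over 60 kb. Abca1, the cholesterol efflux transporter gene, was at 42.5% ± 1.21 over 50 kb. Nr5a2, the gene of the nuclear receptor LRH-1, was at 38.5% ± 0.303 over 50 kb. Zeros made up 41.6% of positions in the Rxra stretch, 34.4% in Nr5a2 and 24.5% in Abca1. Without zeros these averaged 57.8%, 58.7% and 56.4%, close to the limit of 60%. Egfr averaged 54.5% without them, Rbm47 52.9%, Adk 51.2% and the fibrinogen genes 44.9%. Leaving out zeros leaves out unmethylated positions too.

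High stretches, of 5 or more adjacent windows at 90% or more, numbered 296 with 18.5 Mb, and 293 of them lay over a protein-coding gene. Of all 30729668 positions, 14691231 lay inside such genes. How often other runs of this length overlap a gene was not counted, so the 293 have no background. Each library alone gave between 259 high stretches in replicate 2 and 312 in replicate 4. Their density, 15.2 positions per kb, was close to that of all windows. The longest, of 130 kb, lay in Ehbp1 (93.7%, 93.1%, 92.7% and 93.1%) and in Tasp1, the gene of a protease that cleaves the MLL protein (92.6%, 93.4%, 92.9% and 93.2%). Stretches of 120 kb lay in Htt, the huntingtin gene, at 94.4% ± 0.326, Dmxl1 at 94.2% ± 0.296, Nbas at 93.7% ± 0.247, Dock4 at 92.8% ± 0.313 and Atad2b at 92.7% ± 0.129, and the next, of 110 kb, in BC052040. Windows of 100 kb, 18079 with under 10% of positions in blank stretches, ran from 9.05% over Hoxc to 94.7% over Htt, with a median of 74.9%.

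Valleys were runs of 5 or more adjacent 1 kb windows under 15%. There were 1421, or 515 (3.37 Mb) without those with 10% or more of their positions in blank stretches, and 462 to 505 in each library alone. The 515 had a median of 60 positions per kb against 14 for all windows, and 340 of them overlapped 351 of the 14810 protein-coding genes. How often other runs of this length overlap a gene was not counted. Of the 113 genes on the developmental list, 72 were overlapped, by 74 valleys. The longest spanned 25 kb at Pax6, a transcription factor gene of eye and pancreas (chr2:105665001-105690000), with 5.20%, 5.98%, 6.11% and 6.12%. Dlx1 and Dlx2 followed with 22 kb at 6.62% ± 0.360, Hoxc11 and Hoxc10 with 19 kb at 6.86% ± 0.655, Pax3 with 18 kb at 5.39% ± 0.421 and, eighth, Pou3f3 with 16 kb at 3.90% ± 0.489. A different kind were 2 valleys of 17 kb at Rex2 and one of 17 kb with no gene on chromosome 17, where 92.8% to 96.8% of positions were zeros and the remaining positions averaged 96.2% to 97.9%. At Pax6 the remaining positions averaged 24.0%. None of the 515 stayed under 15% when every zero was left out. That cannot tell an unmethylated valley from one without reads, because unmethylated positions are left out too. Few positions had low levels above 0, with 0.177% to 0.225% from 5% to under 10% (blank stretches left out).

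**Figure D4:**
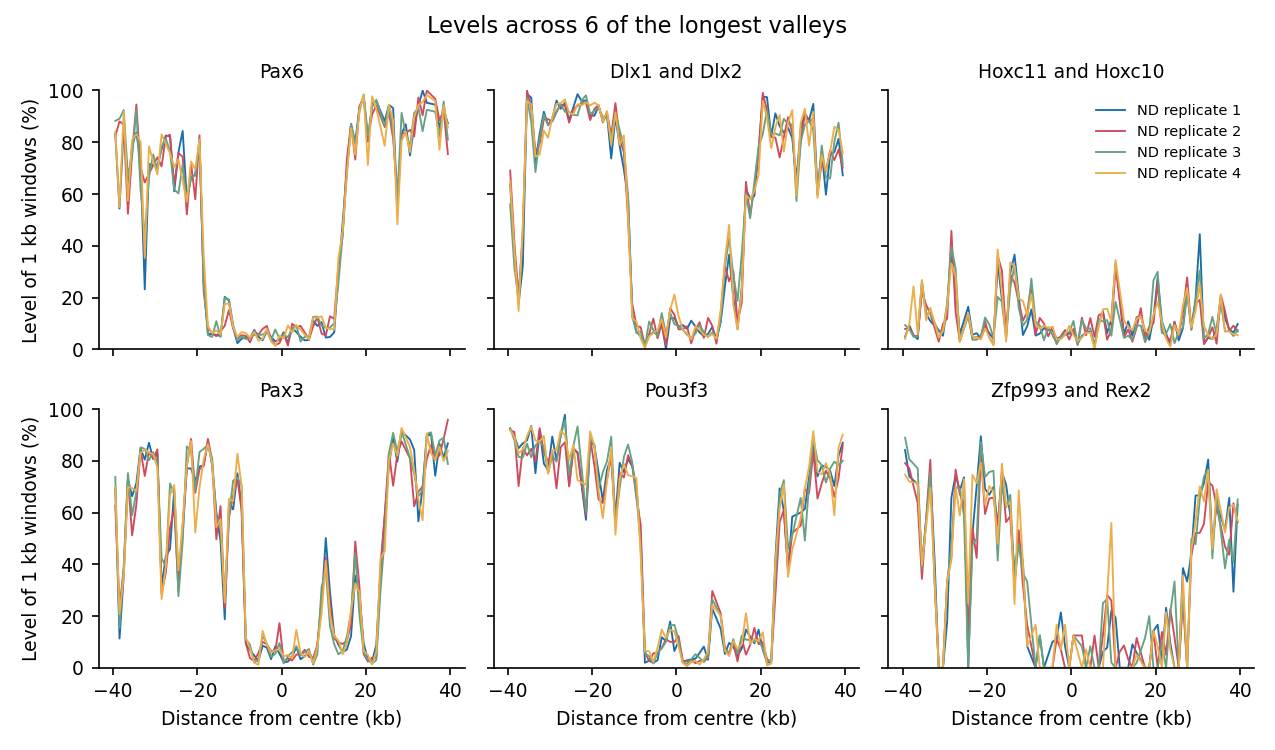
Methylation level of 1 kb windows (y axis, %) by distance from the centre of the valley (x axis, kb) in 6 of the 8 longest valleys, with 1 line per library. Pax6, Dlx1 and Dlx2, Pax3 and Pou3f3 show low floors between more methylated flanks, Hoxc11 and Hoxc10 lie inside the larger low Hoxc cluster, and the valley at Zfp993 and Rex2 has a floor that is mostly exact zeros.

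The 4 libraries agreed more closely over regions than over single positions. Between pairs of libraries Pearson's r was 0.755 to 0.768 over single positions (a regular sample of 3072967), 0.930 to 0.936 over 1 kb windows, 0.982 to 0.986 over 10 kb windows, 0.988 to 0.991 over start ends and 0.991 to 0.994 over gene spans, and Spearman's rho 0.609 to 0.627 over positions and 0.985 to 0.987 over spans. The mean absolute difference between a pair was 13.7 to 14.1 points at a position and 1.42 to 1.67 points at a span. Averaging both strands of a CpG raised the mean r over positions from 0.762 to 0.861. These correlations are across sites of the same genome and carry no p. Within the 6819 spans at 70% or more, r was 0.910 to 0.925.

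The SD between libraries had a median of 0.911 points over spans and fell with the number of positions, from 3.22 points for spans with 20 to 49 positions to 0.558 for those with 2000 or more. By level it was largest for spans of 10% to 30%, at 1.302 points, and smallest for those of 70% to 90%, at 0.717 (at least 100 positions). Replicate 2 was the lowest library in 40.8% of spans and the other 3 in 19.11% to 20.13% each. Replicate 3 was the highest in 32.2%.

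An SD of 5 points or more occurred in 77 spans with at least 100 positions, and in 30 of these replicate 4 stood above the rest. The largest was H3c13, a histone H3 gene on chromosome 3, with 0.132%, 0%, 7.72% and 30.2%. Twist1, a mesodermal transcription factor gene, had 2.67%, 1.96%, 3.90% and 25.7%, Sox2, a stem cell transcription factor gene, 4.72%, 5.38%, 11.4% and 25.3%, and Ppp1r14b 9.84%, 9.99%, 10.6% and 28.0%, each highest in replicate 4. Replicate 3 was highest at H2-D1, a classical MHC class I gene, with 10.5%, 9.93%, 30.4% and 10.5%, at Cdkn2b, a cyclin-dependent kinase inhibitor gene, with 11.9%, 10.1%, 31.0% and 16.8%, and at B3galt4, with 54.9%, 55.1%, 76.1% and 61.0%. Gm39701 was lowest in replicate 4, at 50.9% against 71.2% to 73.1%. Replicate 4 did not stand apart in its mean over all positions, 72.1%, but was the highest library at positions with 30 or more listed positions around them, with 9.97% against 9.15% to 9.45%, and in the median of the developmental list, with 10.2% against 7.42% to 8.84%. At 100 bases downstream of starts with 15 or more CpGs it was also the highest, at 2.81% against 1.93% to 2.41%. Its part in the values of the spans above was not tested.

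**Figure D5:**
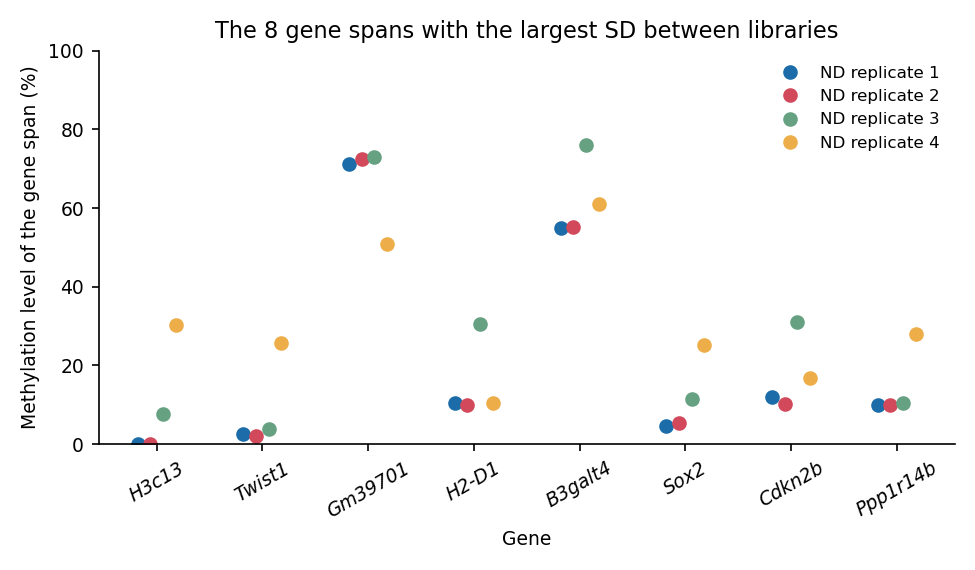
Methylation level of the gene span (y axis, %) in each of the 4 libraries (points) for the 8 spans with the largest SD among those with at least 100 positions (x axis). In 4 of the 8, H3c13, Twist1, Sox2 and Ppp1r14b, replicate 4 is the highest point, and in 3, H2-D1, B3galt4 and Cdkn2b, replicate 3 is.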

How the data were processed

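Whole-genome bisulfite sequencing of liver DNA gave a deposited table of percent methylation, in which the authors list for each library the percent of methylated calls at each cytosine of a CpG, each strand apart. The build is mm10 and FastQC was run, per the submitters' processing notes. For the aligner, the methylation caller and any coverage filter, the name is not given in the sources used here. Without read counts the depth and the counting error are unknown. Only the 4 normal-diet columns were used, with 30729668 positions on 15 chromosomes. Another 326824 positions on 85 contigs and 1 incomplete line were left out.

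Listed positions were matched to RefSeq sequence (GRCm38.p6): 290317 of 290317 promoter CpGs lay 1 base below the listed position, so 1 was subtracted. Levels were averaged over positions for gene spans (at least 20 positions), gene ends (at least 6), 300-base starts (at least 2 CpGs and 4 positions) and windows, in each library, and are given as mean ± SD over 4 libraries. Strand came from the RefSeq promoter table, so starts on chromosome 18 are not analysed here. The comparisons used an exact two-sided sign-flip permutation test over libraries. Python 3.11.15, numpy 2.4.6, pandas 2.3.3, scipy 1.17.1 and matplotlib 3.10.9 were used, and the calculations were tested on simulated data.

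The members and gene lists were chosen with earlier results of these data known. By rule, the genes named were the 12 lowest and 12 highest spans with at least 100 positions, the same among genes of at least 50 kb, the lowest, highest and median members of each list, the 8 spans with the largest SD, the genes of the 8 longest stretches of each kind and the 8 largest differences between gene ends in each direction. By the rule as planned the lowest spans would have come from 99 spans at 0 in all 4 libraries. Regions with 10% or more of their positions in blank stretches were therefore left out of naming, which was decided after the data were seen. Named starts and the liver genes among the low stretches were also chosen after their values were seen. Alternatives covered the zeros, the minimum number of positions, the averaging, the windows, the thresholds and each library left out in turn.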

Additional observations from a re-analysis of the deposited data

Results flagged for a closer look

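Of 142 results examined, 19 (13.4%) had 1 library whose gap to the nearest other, as a share of the range of the 4, was above Dixon's 95% critical value. Chance gives about 1 in 20 for groups that were not selected, but the results examined include 8 spans chosen for a large SD between libraries, and 3 with 3 libraries at exactly 0, where the share is 1.0 by construction, so the 2 rates cannot be set against each other. Replicate 4 was the one that stood above in 6 and below in 3, replicate 3 above in 3, replicate 2 above in 2 and below in 2, and replicate 1 above in 2 and below in 1. No cause was tested.

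Replicate 4 stood above the others in the span of Twist1 (share 0.919, 25.7% against 1.96% to 3.90%), Ppp1r14b (0.959), Gata4 (0.914, 41.0% against 37.8% to 38.1%), Nrp (0.830) and LOC115489748 (0.911) and in the low stretch at Hoxc (0.862). It stood below them in the span of Gm39701 (0.913) and of Ldhal6b (0.931), and in the median span of the plasma protein genes (0.907), which was 55.1% against 57.8% to 58.1%.

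Replicate 3 stood above in the spans of H2-D1 (0.971, 30.4% against 9.93% to 10.5%), Mafg (0.968, 22.1% against 13.02% to 13.31%) and Tsc22d2 (0.894). Replicate 2 stood above in the valley at Dlx1 and Dlx2 (0.854) and upstream of Ppara (1.0), and below in Pdpk1 (0.866) and at positions with 10 to 19 listed positions within 100 bases on either side (0.864). Replicate 1 stood above in H2ac19 (1.0) and H2ac18 (1.0), where the other libraries were at 0, and below in the valley at Pax6 (0.849).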

How the results depend on the processing

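No paired analysis was possible because only 1 group is described. Leaving out each library in turn moved none of the 17 summary results past its limit. The limit was a change of sign for differences, the SD between libraries for levels and correlations, and a fixed ratio for counts. For the mean level and the differences this outcome was fixed in advance, so it shows no stability. Leaving out 1 of 4 libraries shifts a mean over libraries by less than their SD, and the differences were negative in every library. Single values that are means over libraries were bound in the same way. The median span ranged from 69.3% to 69.5%, with 1394 to 1413 spans under 30% and 153 to 160 at 90% or more. The last range lies above the 146 of all 4 libraries together. Medians were 13.02% to 13.35% for start ends and 83.0% to 83.3% for other ends. Start ends under 10% numbered 5044 to 5141, and 1599 to 1661 start and 6687 to 6795 other ends were at 80% or more. Differences were -44.3 to -44.2 points between ends and -2.03 to -1.77 points between genes and intergenic DNA. The mean level was 71.7% to 72.1%, with 232 to 246 low stretches, 285 to 312 high stretches and 1404 to 1426 valleys. The mean r was 0.758 to 0.765 over positions, 0.932 to 0.935 over 1 kb windows and 0.992 to 0.993 over spans. The treatment of zeros mattered most, and depth, which is unknown, limits every level because a 0 may be a position without reads. Without any zero, the mean level was 82.6%, the median span 83.4%, spans under 30% 116 and at 90% or more 1626, start end median 59.0%, start ends under 10% 1, other end median 85.3%, low stretches 13, high stretches 575, valleys 0, and mean r 0.616, 0.890 and 0.957. Start ends under 10% and valleys could hardly remain, because unmethylated positions are left out too. The difference between genes and intergenic DNA then reversed to 1.99 points, and the cause was not tested. Without doubtful zeros the mean level was 73.5%, the median span 70.9%, spans at 90% or more 230, the other end median 84.7%, high stretches 468 and r over positions 0.814. Without blank stretches the mean level was 72.5%, the median span 69.9%, the start end median 13.7% and valleys 515, an alternative chosen after seeing the data. With at least 100 positions the median span was 68.8% and 63 were at 90% or more. Averaged over 1 kb windows these were 76.7% and 256, with 851 under 30%, and with gene ends trimmed 80.8%, 1562 and 444. With at least 20 positions the end medians were 10.0% and 83.8%, and with ends of 2000 bases either way 25.5% and 81.4%, with 2013 start ends under 10%. Windows of 20 kb gave 454 low stretches, a limit of 50% gave 143, and a limit of 92% gave 79 high stretches. Averaging strands gave r = 0.861 over positions. Of 390 single values, 118 moved past limits of the same kind without doubtful zeros and 2 to 5 with a library left out. Of those that each could give, 303 moved and 79 did not without any zero, 139 and 99 with 1 kb windows, and 119 and 45 with trimmed spans.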
